A study of Mus musculus with 26 samples.

Results

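Scgb1b2 and Scgb3a1, both secretoglobins, and Crisp2, a cysteine-rich secretory protein, were followed through 5 exocrine glands of male and female mice. They were taken by symbol from the annotation of the array, where each was carried by a single probe and matched its Entrez identifier. They are 3 of the 8841 genes with a symbol on the array. All 3 passed the filter on dim probes, and none had a missing spot on any array.

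Males and females of the BALB/c strain were compared on 26 expression arrays in 3 salivary glands (submandibular, sublingual, parotid), in the lacrimal gland, which makes tears, and in the meibomian gland of the eyelid. Each array held RNA of 1 pool of glands from 5 animals, 10 glands in all, so a value is a mean over animals and no single animal was measured. Each sex had pools A, B and C (n = 3) for submandibular, lacrimal and meibomian tissue but only A and B (n = 2) for sublingual and parotid tissue. The sources used here give no age, treatment or genotype beyond the strain, and do not say whether pools of the same letter hold separate animals in each gland. P-values therefore measure the spread between these pools.

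Secretoglobins are small secreted proteins that pair through disulfide bonds and enclose a hydrophobic pocket. Scgb1b2 encodes an alpha-type subunit of the mouse androgen-binding proteins, which are secreted into saliva and tears and have been studied in mate recognition. Scgb3a1 is known chiefly from the secretory epithelium of the airways. Crisp2, also called Tpx1, is known from the testis, where its protein sits in the acrosome and tail of sperm. It belongs to the CAP superfamily of secreted proteins, with the other CRISP proteins.

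The upstream 250 bases of the 3 genes are shown because Scgb3a1 and Crisp2 shared a higher level in male lacrimal glands. Scgb1b2 lay at or near the array maximum there in both sexes. In RefSeq the genes span chr7:31290519-31291816 (Scgb1b2, Entrez 57426), chr11:49663595-49665118 (Scgb3a1, Entrez 68662) and chr17:40764734-40794146 (Crisp2, Entrez 22024). The upstream bases were read from RefSeq promoter windows of assembly GRCm38.p6. The window of Scgb1b2 lies on the minus strand at chr7:31291817-31292066, that of Scgb3a1 on the plus strand at chr11:49663345-49663594, and that of Crisp2 on the minus strand at chr17:40794147-40794396. Each is written 5′ to 3′ toward the transcription start, and capitals mark a match to the TATA box word TATAAA on either strand.
Scgb1b2: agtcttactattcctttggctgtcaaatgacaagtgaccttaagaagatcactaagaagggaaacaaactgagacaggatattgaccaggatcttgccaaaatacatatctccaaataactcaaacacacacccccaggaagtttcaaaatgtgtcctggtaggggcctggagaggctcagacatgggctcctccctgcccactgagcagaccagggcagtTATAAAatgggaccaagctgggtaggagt
Scgb3a1: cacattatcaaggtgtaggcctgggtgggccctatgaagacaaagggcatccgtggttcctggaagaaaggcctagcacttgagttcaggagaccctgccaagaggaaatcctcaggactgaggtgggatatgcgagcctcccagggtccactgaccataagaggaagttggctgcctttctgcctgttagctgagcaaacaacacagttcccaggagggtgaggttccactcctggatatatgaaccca
Crisp2: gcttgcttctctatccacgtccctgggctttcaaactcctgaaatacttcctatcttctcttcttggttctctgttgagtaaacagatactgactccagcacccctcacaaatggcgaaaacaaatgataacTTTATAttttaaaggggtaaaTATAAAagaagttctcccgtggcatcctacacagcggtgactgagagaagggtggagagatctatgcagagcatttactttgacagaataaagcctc
Scgb1b2 held TATAAA in the sense direction 29 bases before the start. Crisp2 held it 97 bases before the start, and the reverse complement TTTATA 118 bases before. Scgb3a1 held neither word in this window. Over all 32851 RefSeq windows of the same length, 12.4% held the word on either strand. The core hexamer of the androgen response element, AGAACA or its reverse complement TGTTCT, was searched likewise. It occurred in 16.1% of all windows and in none of the 3 printed, which says only that these letters are not in these windows.

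Intensities were scaled within each array, with array medians of 0.928 to 0.955. The brightest probe of an array ranged from 103 in the female meibomian pool C to 868 in the male lacrimal pool C. Values of 1 probe are compared between arrays, and no probe is compared with another, except to show how near it lay to the array maximum. Differences are on the log2 scale with the standard error, and the level of a group is the geometric mean of its pools. All tests are from limma with Benjamini-Hochberg adjustment over all probes kept. A call needed an adjusted p under 0.05 and, between glands, also a log2 difference of at least 1. A symbol stands for the probe that carries it. What a probe reads was not tested, and for Scgb1b2 the closely related androgen-binding protein genes may share signal with it. In whole glands, fewer cells of a type and less RNA per cell cannot be told apart.

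Scgb1b2, the alpha-type subunit, was bright in the lacrimal, submandibular and sublingual glands and low in the meibomian and parotid glands. In lacrimal glands it had 664, 475 and 868 in male pools A to C and 701, 553 and 714 in female pools. The ranges of the sexes overlapped. In submandibular glands it had 331, 291 and 217 in male pools and 510, 389 and 323 in female pools. The males lay below the females of the same letter in all 3 pairs, by -0.62, -0.42 and -0.58 on the log2 scale, although the highest male pool exceeded the lowest female pool. In sublingual glands it had 122 and 52.2 in male pools and 188 and 265 in female pools. Both males lay below both females.

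In meibomian glands Scgb1b2 had 13.5, 4.66 and 4.68 in male pools and 4.27, 3.86 and 4.51 in female pools. Male pool A stood apart from the other meibomian pools. In parotid glands it had 2.38 and 1.70 in male pools and 2.82 and 1.31 in female pools, and the sexes overlapped. Skeletal muscle markers, of which 8 of the 9 listed were on the array, were high in these glands. They summed to 208 to 281 in male and 191 to 334 in female meibomian pools, and to 135 to 195 in male and 51.5 to 206 in female parotid pools. In submandibular glands they summed to 17.4 to 23.4 in male and 2.17 to 4.04 in female pools, and in sublingual and lacrimal pools to at most 5.07. Their part in the Scgb1b2 levels was not tested.

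**Figure D1:**
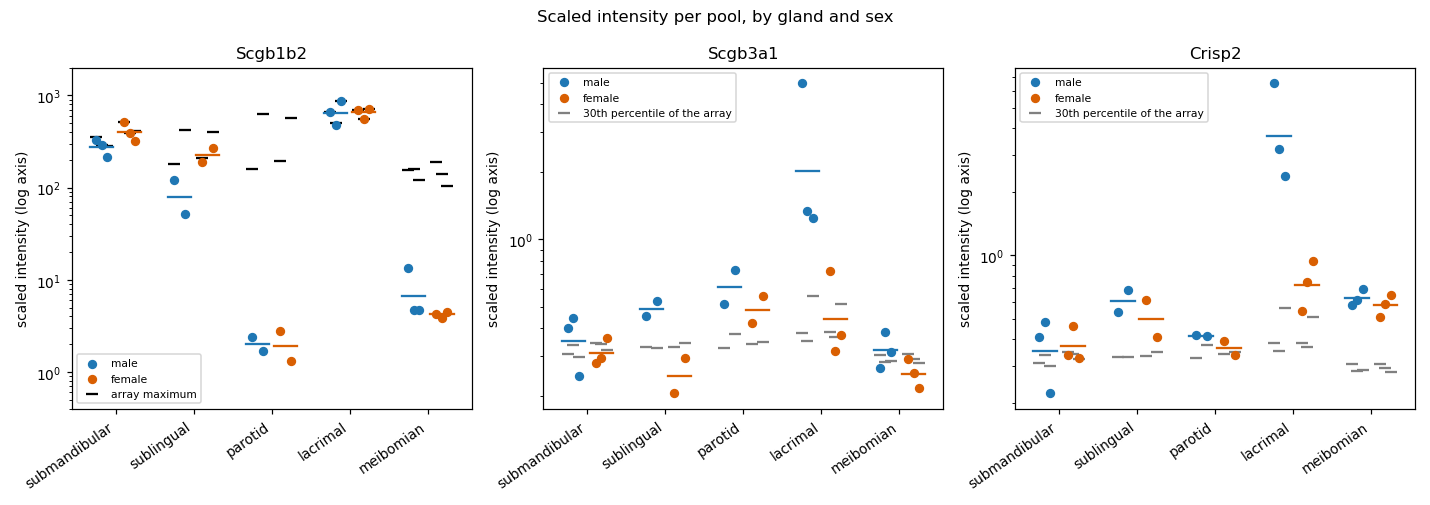
Scaled intensity (log axis) of Scgb1b2, Scgb3a1 and Crisp2 in each pool, male left of female in each gland, with the geometric mean of each group as a line. Black dashes mark the maximum of each array beside Scgb1b2 and grey dashes the 30th percentile of each array beside the other genes. Lacrimal Scgb1b2 lies at or within 5% of the array maximum in both sexes, and the male lacrimal pools of Scgb3a1 and Crisp2 lie above all other pools.

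How close Scgb1b2 came to the top of each array limits what these levels can show. In lacrimal glands it stood at 100%, 95.3% and 100% of the array maximum in male pools A to C and at 100% in all 3 female pools. It was the brightest of all probes on 5 of the 6 lacrimal arrays, all but male pool B. On lacrimal pool C its excess over the next brightest probe was 1.32-fold in the male and 1.27-fold in the female, and on the other arrays that it led at most 1.05-fold.

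In submandibular glands it reached 92.9%, 100% and 77.3% of the maximum in male pools and 100%, 100% and 78.3% in female pools. In sublingual glands it reached 67.3% and 12.4% in male pools and 90.8% and 65.7% in female pools. It reached at most 1.51% in the parotid gland and at most 8.70% in the meibomian gland. A group is called near the ceiling here if all its pools reached 80% of the array maximum, and this held for both lacrimal groups alone. Probes within 5% of the array maximum numbered 1 to 8 on lacrimal, 1 to 6 on submandibular and 2 to 30 on meibomian arrays. Whether brighter signal was clipped there was not tested, so the levels of lacrimal pools and of submandibular pools at the maximum may be lower limits.

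**Figure D2:**
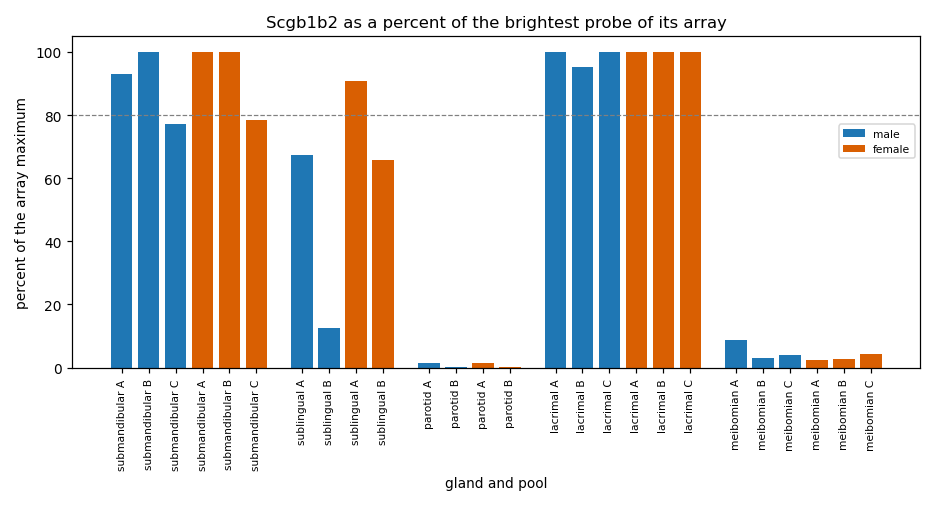
Scgb1b2 as a percent of the brightest probe of the same array, one bar per pool, male left of female in each gland, with the 80% mark as a dashed line. All 6 lacrimal bars and 4 of the 6 submandibular bars stand above the mark, and all parotid and meibomian bars lie at or below 8.70%.

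Between glands, with both sexes weighted equally, Scgb1b2 averaged 650 in lacrimal, 332 in submandibular, 133 in sublingual, 5.29 in meibomian and 1.97 in parotid glands. Against the mean of the other 4 glands it was called higher in the lacrimal gland, 25.0-fold as measured (log2 4.64 ± 0.23, adjusted p = 1.1e-12). This fold is no bound in either direction, since submandibular pools in the mean of the others also lay at the array maximum. There, 11.6% of all probes were called higher. It was called higher in the submandibular gland by log2 3.43 ± 0.23 (adjusted p = 3.4e-10), as were 5.68% of all probes. It was called higher in the sublingual gland by log2 1.79 ± 0.26 (adjusted p = 3.9e-05), as were 5.90% of all probes.

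The parotid gland was called lower by log2 -5.82 ± 0.26 (adjusted p = 1.8e-12), as were 8.13% of all probes. The meibomian gland was called lower by log2 -4.04 ± 0.23 (adjusted p = 3.9e-12), as were 20.9% of all probes. These 5 comparisons share arrays with one another. Setting every value above the lowest array maximum to that maximum gave 2.56 in both the lacrimal and the submandibular gland, since all their pools then lay at the common ceiling. The parotid gland then had -4.58, the meibomian gland -2.79 and the sublingual gland 2.25, and each of the 5 was still called.

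In the order of levels, neighbouring glands were set against each other. Submandibular minus lacrimal was -0.97 ± 0.28 (adjusted p = 0.0097), short of the log2 difference of 1. With all lacrimal pools and 4 of the 6 submandibular pools near the array maximum, no order is read between these glands. Submandibular minus sublingual, which a ceiling at the maximum would also limit, was 1.31 ± 0.31 (adjusted p = 0.0053). There, 4.66% of all probes were called higher. Sublingual minus meibomian was 4.66 ± 0.31 (adjusted p = 1.3e-10), where 17.9% of all probes were called higher, and parotid minus meibomian was -1.43 ± 0.31 (adjusted p = 0.00058), where 20.1% were called lower.

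Taken by sex, the submandibular and sublingual glands of males differed by 1.79 (adjusted p = 0.010; 4.92% of all probes called higher), while those of females differed by 0.84 and did not pass (adjusted p = 0.40). The F test of whether the sex difference varied between glands did not pass for Scgb1b2 (adjusted p = 0.44). Levels are also given by array set (groups of arrays that lack the same spots, described with the processing). In the first set they were 682 in lacrimal, 372 in submandibular, 151 in sublingual and 2.59 in parotid glands. In the second set they were 787 in lacrimal, 264 in submandibular, 118 in sublingual and 1.49 in parotid glands. In the third set they were 512 in lacrimal and 7.58 in meibomian glands, and in the fourth 4.42 in meibomian glands. No set held meibomian with salivary glands, so each difference between them is also a difference between sets.

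**Figure D3:**
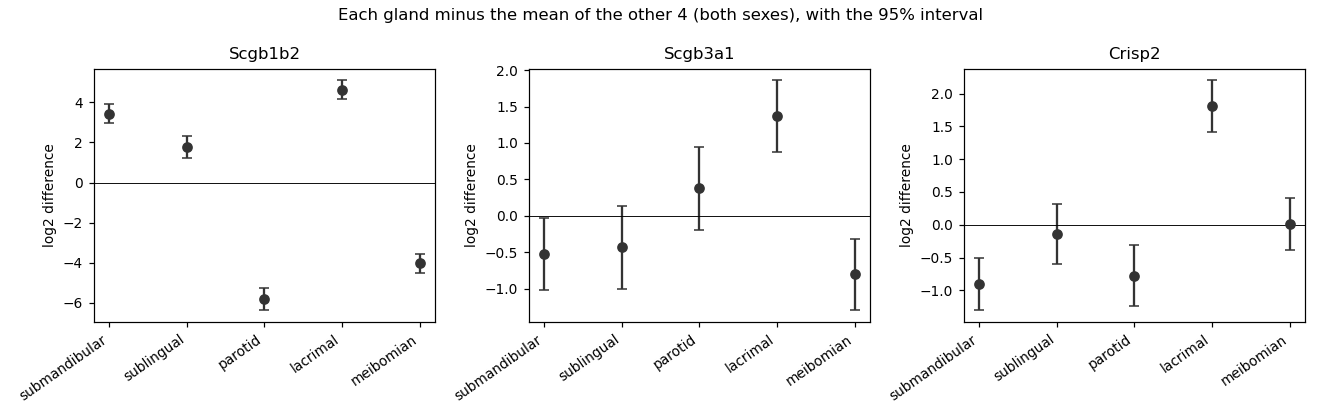
Log2 difference of each gland from the mean of the other 4, both sexes weighted equally, for the 3 genes, with the 95% interval of the limma fit (each panel has its own axis). Scgb1b2 spans from -5.82 in the parotid to 4.64 in the lacrimal gland, where lacrimal and most submandibular pools lie near the array maximum, and the lacrimal gland is the highest point of all 3 panels.

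No sex difference of Scgb1b2 was called in any gland. In either direction, 5.43% of all probes were called in lacrimal, 2.61% in submandibular, 0.208% in sublingual, 0.0244% in parotid and 0.0366% in meibomian glands. These shares depend on the fit: with the pool letter as a block 597 probes were called in submandibular glands, against 214 without it, and 36 in sublingual glands, against 17. In lacrimal glands the geometric means were 649 in males and 652 in females, a difference of -0.01 ± 0.39 with an interval of -0.83 to 0.82 (adjusted p = 0.999). Both sexes lay at or near the array maximum. If signal was clipped there, which was not tested, a difference above it would not be seen on these arrays. In submandibular glands males averaged 275 and females 400, a difference of -0.54 ± 0.39 (adjusted p = 0.79). There 4 of the 6 pools lay at 92.9% to 100% of the array maximum. With the common ceiling of 103 the difference was 0 by construction, since all 6 pools lay above it. The pair of pool C, at 77.3% and 78.3% of the array maximum, differed by -0.58. In meibomian glands males averaged 6.65 and females 4.2, a difference of 0.66 ± 0.39 that was not called, and pools B and C differed by 0.27 and 0.05 between the sexes.

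In the sublingual gland Scgb1b2 averaged 79.7 in males and 223 in females. The difference was -1.49 ± 0.48, with an unadjusted p of 0.0060 and an adjusted p of 0.73, so it was not called. In that gland all males lay below all females for 10.3% of all probes. The letter pairs differed by -0.63 in pool A and -2.34 in pool B, and without male pool B the difference was -0.87. With the common ceiling, which set every pool but male B to the same value, it was -0.49. Markers of the granular convoluted duct, the androgen-dependent duct of the mouse submandibular gland, were also measured there. Egf had 86.5 and 28.6 in male sublingual pools and 7.01 and 3.09 in female pools. Klk1b24, a kallikrein of the same duct, had 60.4 and 19.0 in male pools and 2.27 and 1.43 in female pools. The 4 markers of that list on the array (Egf, Klk1b24, Klk1b5 and Smr2, of 17 listed) summed to 315 to 351 in male and 201 to 298 in female sublingual pools. They summed to 652 to 864 in male and 369 to 491 in female submandibular pools. In parotid glands Egf averaged 2.17 in males and 1.75 in females, and Klk1b24 averaged 0.981 and 0.774. The 4 markers still summed there to 163 to 368 in male and 193 to 302 in female pools. The sum therefore did not follow Egf and Klk1b24. Klk1b5 and Smr2 are not shown singly, so neither the sum nor Egf and Klk1b24 are read as a measure of that duct in the sublingual gland. Within each sex the sublingual pool with the lower Egf was B, and Scgb1b2 in pool B was the lower of the pair in males and the higher in females. The part of submandibular tissue in the sublingual values was not tested.

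Scgb3a1, the airway-type secretoglobin, was near the detection range of the arrays in most glands and highest in male lacrimal glands. There it had 4.98, 1.34 and 1.24 in male pools A to C and 0.724, 0.316 and 0.375 in female pools. Every male pool lay above every female pool, as was so for 5.67% of all probes in this gland. Male pool A was the highest by a wide margin, and female pool A was the highest of the females. The geometric means were 2.02 in males and 0.441 in females, a measured ratio of 4.58 (log2 2.20 ± 0.41, adjusted p = 0.0016). Because 2 of the 3 female values lay below the 30th percentile of their arrays, the males are given as at least 3.93-fold higher, with those values raised to that percentile. Of all probes, 2.91% were called higher in male lacrimal glands, and Scgb3a1 stood at place 84 among the 238 called. With the pool letter as a block 1108 probes were called in this gland in either direction, against 445 without it.

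The letter pairs of Scgb3a1 in the lacrimal gland differed by 2.78 in A, 2.08 in B and 1.72 in C. Each letter of this gland lay in another array set, so these are also the differences within sets. Without male pool A the difference was 1.54 (adjusted p = 0.00743). Female pools B and C lay below the 30th percentile of their arrays, which was 0.366 on B and 0.512 on C. The lacrimal C arrays had a raised low end, with a 1st percentile of 0.178 in the male and 0.157 in the female, against at most 0.0298 on any other array. Fitted on the lacrimal arrays alone, the difference was 2.20 with an adjusted p of 0.21.

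Outside the lacrimal gland Scgb3a1 stayed at 0.206 to 0.727. It had 0.512 and 0.727 in male parotid pools and 0.423 and 0.556 in female pools, with overlapping sexes. In sublingual glands it had 0.452 and 0.532 in male pools and 0.206 and 0.294 in female pools. Both males lay above both females, as for 14.9% of all probes there, and both female values were below the 30th percentile. With those values raised to that percentile, the measured ratio of males to females was 1.45. The fitted difference was not called, and its interval of -0.05 to 2.05 includes no difference.

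In submandibular glands Scgb3a1 had 0.402, 0.444 and 0.245 in male pools and 0.279, 0.297 and 0.363 in female pools. The sexes overlapped. In meibomian glands it had 0.266, 0.386 and 0.315 in male pools and 0.292, 0.252 and 0.216 in female pools, and all 3 female values lay below the 30th percentile. No sex difference was called in these 4 glands.

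Over the mean of the 5 glands, Scgb3a1 was 0.81 ± 0.20 higher in males with an adjusted p of 0.051, and 0.891% of all probes were called higher. With the pool letter as a block the adjusted p was 0.0040. The lacrimal sex difference exceeded the mean of the other 4 by 1.73 ± 0.47 (adjusted p = 0.042), as 2.11% of all probes did. This call was lost in 18 of the 26 fits that left out 1 array, and the F test over all glands did not pass (adjusted p = 0.27).

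Between glands, Scgb3a1 averaged 0.944 in lacrimal, 0.544 in parotid, 0.347 in sublingual, 0.331 in submandibular and 0.283 in meibomian glands. The lacrimal gland was at least 2.37-fold above the mean of the others with values below the 30th percentile raised to it (fitted log2 1.37 ± 0.24, adjusted p = 7.0e-05). Of all probes, 11.6% were called higher in this gland. Parotid minus lacrimal was -0.79 ± 0.32 (adjusted p = 0.055), so the first and second place were not told apart. Among males, parotid minus lacrimal was -1.73 (adjusted p = 0.0077), where 12.8% of all probes were called lower. Among females the gland highest in level was the parotid, at 0.485, against 0.441 in lacrimal glands, and no pair of glands passed (adjusted p of at least 0.10).

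Crisp2, the testis-known CAP gene, was highest in male lacrimal glands too. It had 6.57, 3.18 and 2.39 in male lacrimal pools A to C and 0.543, 0.743 and 0.941 in female pools. Every male pool lay above every female pool, as for 5.67% of all probes in this gland. Every male lacrimal pool also lay above all pools of the other glands. The geometric means were 3.68 in males and 0.724 in females, 5.09-fold (log2 2.35 ± 0.33, adjusted p = 6.5e-05). It stood at place 75 among the 238 probes called higher in male lacrimal glands, 2.91% of all probes.

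The letter pairs of Crisp2 in the lacrimal gland differed by 3.60 in A, 2.10 in B and 1.34 in C, all in the same direction and each within 1 array set. Neither sex was at the low end of the arrays, since the lowest female value stood at percentile 38.6 of its array. Fitted on the lacrimal arrays alone the adjusted p was 0.056, and with pools B and C only the difference was 1.72 (adjusted p = 0.053).

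In the other glands Crisp2 stayed between 0.222 and 0.689. It lay below the 30th percentile of the array in submandibular male pool C and female pool A, and in parotid female pool B. In meibomian glands it had 0.581, 0.616 and 0.689 in male pools and 0.511, 0.588 and 0.648 in female pools, and the sexes overlapped. In sublingual glands it had 0.538 and 0.685 in male pools and 0.613 and 0.408 in female pools. These too overlapped.

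In parotid glands Crisp2 had 0.418 and 0.413 in male pools and 0.392 and 0.338 in female pools. Both males lay above both females, as for 8.96% of all probes there. In submandibular glands it had 0.410, 0.480 and 0.222 in male pools and 0.336, 0.464 and 0.327 in female pools, and the sexes overlapped. The sex differences of these 4 glands ran from -0.07 to 0.28 and none was called.

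The lacrimal sex difference of Crisp2 exceeded the mean of the other 4 glands by 2.22 ± 0.38 (adjusted p = 0.00077), as 2.11% of all probes did. The F test over the 5 glands passed (adjusted p = 0.013), as it did for 2.66% of all probes. Crisp2 was the only one of the 3 genes to pass that test. Averaged over the 5 glands, Crisp2 was 0.57 ± 0.16 higher in males, which was not called (adjusted p = 0.11).

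**Figure D4:**
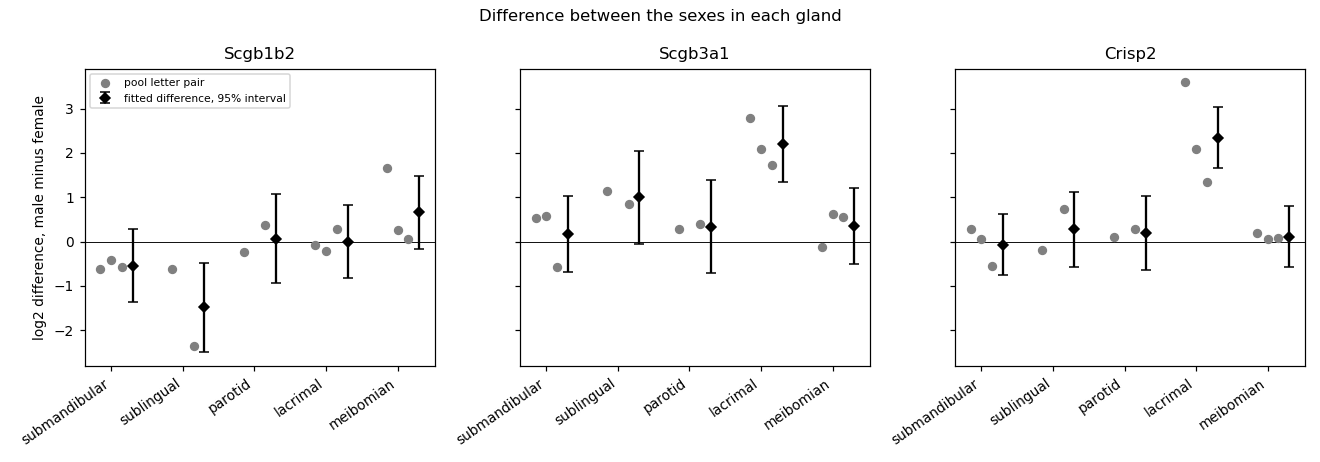
Log2 difference between male and female pools in each gland for the 3 genes, with grey points for pools of the same letter and a black diamond for the fitted difference with its 95% interval. In the lacrimal gland all 3 pairs of Scgb3a1 (1.72 to 2.78) and of Crisp2 (1.34 to 3.60) lie above 0, while those of Scgb1b2, all near the array maximum, lie between -0.22 and 0.28.

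Between glands, Crisp2 averaged 1.63 in lacrimal, 0.603 in meibomian, 0.551 in sublingual, 0.389 in parotid and 0.361 in submandibular glands. The lacrimal gland lay 3.51-fold above the mean of the others as measured (log2 1.81 ± 0.19, adjusted p = 1.3e-07). It was called higher there, as were 11.6% of all probes. Submandibular (-0.91 ± 0.19, adjusted p = 0.00092) and parotid glands (-0.77 ± 0.22, adjusted p = 0.0092) lay below the mean of the others by less than the log2 difference of 1 that a call needs. Lacrimal minus meibomian was 1.44 ± 0.23 over both sexes (adjusted p = 2.2e-05), where 24.3% of all probes were called higher.

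By sex, the lacrimal level of Crisp2 was the highest among the glands in males and also in females. Male lacrimal minus male meibomian was 2.55 ± 0.33 (adjusted p = 2.5e-06; 22.5% of all probes called higher), against 0.32 ± 0.33 in females (adjusted p = 0.44). Female levels were 0.724 in lacrimal, 0.580 in meibomian, 0.500 in sublingual, 0.370 in submandibular and 0.364 in parotid glands. Female submandibular minus lacrimal was -0.97 (adjusted p = 0.044), under the log2 difference of 1. Over both sexes, submandibular minus meibomian was -0.74 (adjusted p = 0.010) and parotid minus meibomian was -0.63 (adjusted p = 0.044), also under it. Sublingual minus meibomian was -0.13 ± 0.26 (adjusted p = 0.70) and submandibular minus parotid was -0.11 ± 0.26 (adjusted p = 0.81), so these neighbours were not told apart.

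The lacrimal arrays were checked against markers of their own and of other cells. Sval2, an abundant lacrimal product, had 489, 383 and 658 in male lacrimal pools and 567, 482 and 522 in female pools, and at most 4.22 as a group level in any other gland. Csn1s2a, a casein also made there, had 346, 130 and 115 in male pools and 146, 87.9 and 80.3 in female pools. In each sex it was highest in pool A, the pool in which male Crisp2 and Scgb3a1 of both sexes were also highest. Amy1, the salivary amylase, had 229, 8.26 and 6.36 in male lacrimal pools and 57.6, 362 and 57.2 in female pools. Its group levels were 272 in male and 289 in female parotid, 204 in male and 240 in female submandibular, and 211 in male and 204 in female sublingual glands. Its part in the values of the 3 genes was not tested.

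Markers of testis, airway, fat and lymphoid cells were summed likewise. Of 10 testis germ cell genes listed, 6 were on the array, and they summed to 3.57 to 5.46 in male and 3.04 to 3.89 in female lacrimal pools, in a range of 1.46 to 5.46 over all groups, so the highest sum was that of a male lacrimal pool. Tnp1 had 0.358 in male and 0.0979 in female lacrimal glands, and Ldhc had 0.291 and 0.185. Both were highest in male lacrimal glands, but lay there under 0.423, the geometric mean of the 30th percentiles of those arrays. Foxj1 and Sftpa1 of the airway list, also under it at 0.334 and 0.405, were highest in the same group. Odf1, another germ cell gene, had 1.74 in male and 1.26 in female lacrimal glands, against 1.65 in male parotid glands. Of 10 airway genes listed, 7 were on the array and summed to 63.0 to 146 in male and 132 to 230 in female lacrimal pools. Most of that sum came from Cyp2f2, which was bright in every gland. Sftpd, a surfactant protein, was highest in the lacrimal gland, at 7.07 in male and 10.6 in female lacrimal glands, and Scgb1a1, the secretoglobin of airway club cells, had 0.268 in male and 0.175 in female lacrimal glands, below the 30th percentile on all 6 arrays. Of 4 adipocyte genes on the array (7 listed), the sum was 4.05 to 12.1 in male and 12.7 to 21.9 in female lacrimal pools. Of 8 lymphoid genes listed, 7 were on the array and summed to 20.3 to 58.5 in male and 12 to 29.2 in female lacrimal pools. Their part in the sex differences was not tested.

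Other secretoglobins and CAP proteins show where relatives of the 3 genes were measured. Of 37 secretoglobin names listed, 3 were on the array, Scgb1b2, Scgb3a1 and Scgb1a1, so the beta-type partners of Scgb1b2 were not analysed here. Scgb1a1 had 19.9, 21.3 and 16.2 in male meibomian pools and 13.8, 18.4 and 17.0 in female pools. The sexes overlapped, and in all 8 groups of the other 4 glands it lay below the 30th percentile on every array. The meibomian gland was at least 49.7-fold above the other glands. Scgb1a1 passed the filter on low values through the meibomian groups alone, so this is a description with no test.

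Of 15 CAP genes listed, 7 were on the array and 5 passed the filter, namely Crisp2, Crispld1, Glipr2, Pi15 and Pi16. Glipr1l1 and Glipr1l2 did not pass it and were not tested, while Crisp1, Crisp3 and Crisp4 were not analysed here. In the lacrimal sex comparison 1 of the 5, Crisp2, was called, where 5.43% of all probes were called in either direction. Because Crisp2 was chosen with earlier results of these data known, its place in that count is a description. The median of the 5 was -0.34, against -0.03 over all probes. That median is the value of Glipr2, which lay below the 30th percentile in all 3 female lacrimal pools. Pi15, also among the 5, passed the filter through the female lacrimal group alone. The median is therefore no result about the family.

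Crispld1, a CAP gene with LCCL domains, was brightest in male submandibular glands. It had 0.641, 0.516 and 0.510 in male pools and 0.226, 0.144 and 0.104 in female pools. All males lay above all females, as did 7.92% of all probes there, and all 3 female values lay below the 30th percentile, so that the males were at least 1.64-fold higher. It passed the filter through the male submandibular group alone, so this is a description with no test.

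Pi15, a peptidase inhibitor of the CAP family, was at least 1.95-fold higher in the lacrimal gland than in the others. It passed the filter through the female lacrimal group alone, so this is likewise a description. It had 0.572, 0.357 and 0.465 in male lacrimal pools and 0.559, 2.08 and 0.581 in female pools. The sexes overlapped, and female pool B stood above all others. Pi16 was called higher in the meibomian gland by log2 2.47 ± 0.29 (adjusted p = 9.99e-07), as were 17% of all probes. It was measured there in pool A only, at 5.06 in the male and 5.46 in the female, since the spots of pools B and C were missing, and the error and p assume that these lone pools vary like the other groups. In sublingual glands Pi16 ran from 0.470 to 0.585 and was called lower by log2 -1.69 ± 0.22 (adjusted p = 2.4e-05), as were 5.26% of all probes.

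**Figure D5:**
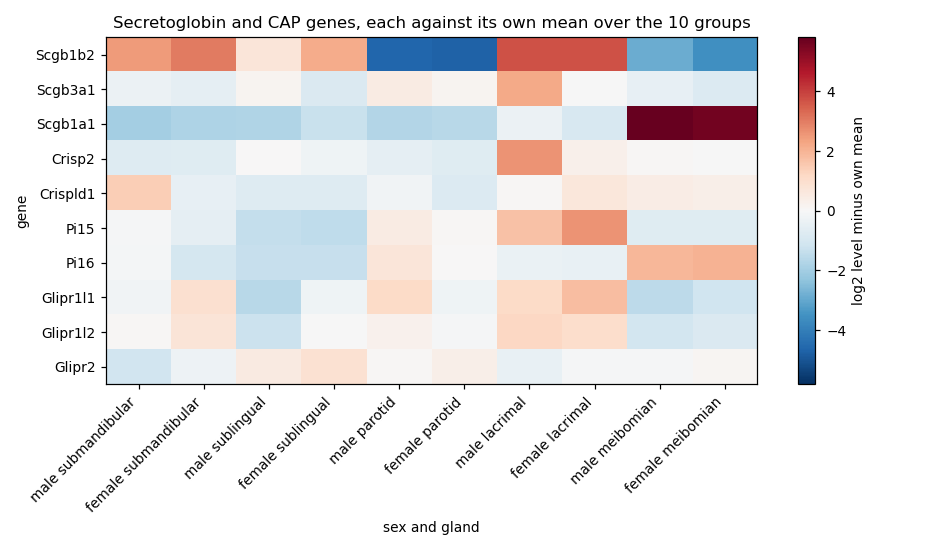
Mean log2 level of each secretoglobin and CAP gene on the array in the 10 groups, male left of female in each gland, minus the gene's own mean over the groups, so that colours compare groups for 1 gene and not genes with each other. Crisp2 and Scgb3a1 are reddest in male lacrimal glands, Scgb1a1 in both meibomian groups, and Crispld1 in male submandibular glands, while Pi16 in the meibomian gland rests on 1 pool per sex.

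Genes with the most similar pattern were ranked by Pearson correlation of the 10 group means, among 2883 probes with 1 symbol whose group means spanned at least 2 on the log2 scale. The 10 groups share arrays between genes, and these correlations are descriptions. For Crisp2 the highest were Car5b (0.98), Rbl1 (0.976), Cutc (0.945), Fip1l1 (0.943) and Olfr140 (0.94). Car5b, a mitochondrial carbonic anhydrase, averaged 9.97 in male and 2.81 in female lacrimal glands and 1.28 to 2.59 elsewhere. The probe for Olfr140, annotated as an olfactory receptor, averaged 74.2 in male and 1.53 in female lacrimal glands and 0.781 to 1.27 elsewhere.

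For Scgb3a1 the most similar were Dvl2 (0.949), Il6 (0.929), Sfmbt1 (0.928), Csf2rb (0.908) and Htr1a (0.904). Csf2rb, a receptor subunit for blood cell growth factors, averaged 7.14 in male and 0.941 in female lacrimal glands. Crisp2 and Scgb3a1 themselves correlated at 0.789 over the groups, and Scgb1b2 correlated at 0.38 with Crisp2 and at 0.197 with Scgb3a1.

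For Scgb1b2 the most similar were Rnf141 (0.971), Taf1c (0.949), Myt1 (0.947), Rab27b (0.947) and Rab27a (0.94). Rab27a and Rab27b encode small GTPases that act in the docking of secretory granules. Rab27b averaged 3.18 in male and 3.31 in female lacrimal glands. It averaged 3.31 in male and 4.59 in female submandibular glands, and 2.30 in male and 2.84 in female sublingual glands. In meibomian glands it averaged 1.21 in males and 1.46 in females, and in parotid glands 0.554 in males and 0.762 in females. Since lacrimal Scgb1b2 lay at or near the array maximum, its likeness to any gene above that level was not measured.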

How the data were processed

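The authors deposited a table of linear intensities for 10500 probes on 26 arrays. The sources used here do not say how they were made or on which platform, and the values show scaling within arrays (medians 0.928 to 0.955) and a background subtraction (lowest value -0.699). Cells holding exactly -1 (2241) were read as missing spots and left out. Every value under 0.0234, which is the 1st percentile of the positive ones, was set to it before log2 was taken. The filter kept 8191 probes, those that in 1 or more of the 10 groups never fell below the 30th percentile of an array. Dim means below that percentile throughout a group, and the percentile then stands in for the level, which makes the fold a bound.

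One limma fit (version 3.58.1, R 4.3.3) covered the 26 arrays, with 10 group means, 16 residual and 4.15 prior degrees of freedom, and Benjamini-Hochberg adjustment within each comparison. The script was tested on simulated data with independent noise on each array. Arrays of the same gland and letter were alike, as described next, so that test does not check the error rates of this fit. Precision is limited by the number of arrays.

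Arrays of the same gland and letter were alike between the sexes. They always shared an array set (described next), so paired pools and a shared set cannot be told apart. Deviations from the group means correlated at 0.441 to 0.816 in the 9 same-letter pairs of the glands with 3 pools, and at 0.518 to 0.65 in the glands with 2, over 7555 probes. The highest correlation between different letters was 0.491, between meibomian B and C, which share a set. In glands with 2 pools, centring on the group mean forces the same value on both letters. The reported fit treats the arrays as independent. Errors and p-values of comparisons between glands, which average the sexes, may therefore be too small. With the pool letter within each gland as a random block, no call of a gland against the others changed for the 3 genes.

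Missing spots put the arrays into 4 sets with both sexes in each. The first held submandibular A and B with sublingual, parotid and lacrimal A, and the second submandibular and lacrimal C with sublingual and parotid B. The third held lacrimal B and meibomian A, and the fourth meibomian B and C. Meibomian and salivary glands thus shared no set, and every comparison between them also crosses sets, linked only through the lacrimal arrays. The sets were seen in the values, and the alternative with the set as a block was chosen after seeing the data.

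The 3 genes and the lists were chosen with earlier results of these data known. Genes named beside them are relatives called in a sex comparison or at least 8-fold apart between glands, and the 5 probes most similar to each gene. RefSeq tables of GRCm38.p6 gave names and promoter windows.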

Additional observations from a re-analysis of the deposited data

Results flagged for a closer look

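The sex difference of Crisp2 in the lacrimal gland differed from that in the other glands. It exceeded the mean of the other 4 by 2.22 ± 0.38 on the log2 scale (limma, adjusted p = 0.00077), as 2.11% of all probes did. All 3 letter pairs of the lacrimal gland showed the male higher.

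The sex difference of Scgb3a1 in the lacrimal gland also differed from the mean of the other glands in the reported fit, but less firmly. It exceeded the mean of the other 4 by 1.73 ± 0.47 (limma, adjusted p = 0.042), as 2.11% of all probes did. The male was higher in all 3 letter pairs. This call was lost in 18 of the 26 fits that left out 1 array. The F test of whether the sex difference varied between glands did not pass (adjusted p = 0.27). In sublingual and meibomian glands the female pools were below the 30th percentile of their arrays, so those differences are not fully measured.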

How the results depend on the processing

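The 36 results on the 3 genes were recomputed under 12 other settings, where these could be fitted, and in 26 fits that left out 1 array each; 27 kept their side of the threshold throughout, and no called result reversed. With only the lacrimal arrays, the lacrimal sex difference stayed at 2.20 for Scgb3a1 (adjusted p = 0.21) and 2.35 for Crisp2 (0.056). With pools B and C only, Crisp2 had 1.72 (0.053). Leaving out 1 array gave 1.54 to 2.55 for Scgb3a1, lowest without male lacrimal pool A, and 1.93 to 2.66 for Crisp2, with both always called. The excess of the lacrimal over the other sex differences was less stable. For Scgb3a1 it was 0.97 on ranks (0.081), 1.73 without the filter (0.067) and with missing spots at the floor (0.054), 1.61 with array weights (0.15) and 1.45 with pools B and C only (0.12). Leaving out 1 array gave 1.08 to 2.09, and it stayed called only without male submandibular B, female sublingual A, female parotid A, male parotid B, female lacrimal A, male lacrimal B or C, or male meibomian B. For Crisp2 it was 1.51 with pools B and C only (0.19). Scgb3a1 in the lacrimal against the other glands was 0.36 on ranks (0.050) and 0.76 with pools B and C only (0.010, under a log2 difference of 1).

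With the pool letters as a replicate block, the lacrimal sex difference had an adjusted p of 0.000151 for Scgb3a1 and 0.000777 for Crisp2, and the block changed no call on the 3 genes other than Scgb3a1 over the mean of the glands, where the difference of 0.81 then passed (0.0040). For Scgb3a1 that mean also passed under quantile normalization, a floor of 0.1, array weights and array sets as a block, and without male submandibular C, female lacrimal A or any 1 male lacrimal pool. For Crisp2 it passed under quantile normalization and without male submandibular C or male lacrimal C.

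Probes called in the lacrimal sex comparison numbered 445, against 96 on the lacrimal arrays alone, 198 with array weights, 1108 with the replicate block, 181 with pools B and C only and 689 with array sets as a block. In the submandibular gland they numbered 214, against 95 on ranks, 359 with array weights, 597 with the replicate block, 68 with pools B and C only, 357 with array sets as a block, and 141 without male A, 141 without male B and 142 without female A. In the sublingual gland they numbered 17, against 5 on ranks, 0 on its own arrays, 36 with the replicate block, 5 with pools B and C only, 27 with array sets as a block and 29 without male A. In the parotid gland they numbered 2, and 0 to 14 under these settings, and in the meibomian gland 3, and 1 to 5. Over the mean of the glands they numbered 52 on ranks, 331 with the replicate block, 13 with pools B and C only and 199 with array sets as a block, each over 1.5 times from the reported fit. On ranks, where no minimum difference was asked, gland calls numbered 1809 against 1006 (submandibular), 1433 against 914 (sublingual), 2435 against 1399 (parotid), 3698 against 1652 (lacrimal, 2998 without the filter) and 4804 against 3104 (meibomian). On ranks Crisp2 was also called lower in submandibular and parotid glands. A ceiling at the array maximum, which was not tested, would limit lacrimal and submandibular Scgb1b2. The low end of the lacrimal C arrays limits female Scgb3a1.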
